A study of Mus musculus with 71 samples.

Results

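C3H/10T1/2 adipocytes kept in DMSO, the vehicle, were compared at 24 and 48 hrs with the same kind of culture at 1 hr. C3H/10T1/2 is a multipotent, fibroblast-like mouse embryo line that can be turned into fat cells in culture. The arrays were chosen by their titles alone, as the C3H/10T1/2 DMSO arrays of 1, 24 and 48 hrs, which gave 9 of the 71 arrays of the series, 3 at each time. mRNA was measured on Affymetrix mouse 430A arrays in adipocytes of the C3H/10T1/2 line and of 3T3-L1, given either DMSO or rosiglitazone (RSG, an activator of the nuclear receptor PPARγ). No RSG-treated array was used here.

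All 9 cultures carried the same history. They were differentiated for 6 days in serum-containing medium with 10 µM RSG and 1 µM insulin, then held for 24 hrs in a washout medium with 1% fatty acid-free BSA and with no RSG, insulin or serum, and DMSO was added in that washout medium. At harvest the 1-hr, 24-hr and 48-hr cultures had therefore been away from serum, insulin and RSG for 25, 48 and 72 hrs. Time in DMSO, time since the last handling of the medium and time without serum, insulin and RSG cannot be told apart in this design. Each array held RNA pooled from 2 wells, and the 3 replicates of each time came from 3 batches of cells of 1 line. The replicate number was taken to mark the same batch at each time, which the titles do not state. It was kept as a block in the model. In bulk RNA, fewer cells of a type and less RNA per cell cannot be told apart.

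A fat cell stores fatty acids as triglyceride, burns some of them in mitochondria, and secretes adiponectin and other proteins. Cells sense oxygen through prolyl hydroxylases that mark the hypoxia-inducible factors (HIF) for destruction, and when oxygen is short HIF turns on glucose uptake, glycolysis and matrix-modifying enzymes. Cells that lack sterols turn on sterol synthesis through SREBP factors, and immediate early genes such as Fos and Jun respond within minutes to serum, stress or a change of medium.

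Values are the signal of a probe set, an intensity on a linear scale, and 19.9 was the level above which a transcript was taken as present. A probe set was tested when at least 1 of the 3 group means reached that level, and 15401 of 22626 did so. Differences are log2 fold changes against 1 hr ± the standard error (SE) from limma, and a probe set was called when its p-value, adjusted over all tested probe sets, was under 0.05. Where a gene had several probe sets, the values given are those of the probe set with the highest mean signal, its representative.

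At 24 hrs 1131 probe sets were called higher (7.34% of those tested) and 934 lower (6.06%). At 48 hrs 915 were called higher (5.94%) and 882 lower (5.73%). The 3 late and 3 early arrays did not overlap for 26.5% of tested probe sets at 24 hrs and 24.6% at 48 hrs. The median log2 difference over all tested probe sets was 0.05 at 24 hrs and 0.01 at 48 hrs. Both comparisons rest on the same 1-hr arrays, so their values are given side by side and not as independent evidence. Without the 1-hr array of replicate 2 the count of called probe sets went from 2065 to 1201 at 24 hrs and from 1797 to 1046 at 48 hrs, and without the 1-hr array of replicate 3 it was 1318 and 1099. It also fell to 1342, 1297 and 1267 without replicate 1, 2 or 3 of the 24-hr arrays, and to 1122 at 48 hrs without the 48-hr array of replicate 1. The 9 arrays were alike in scale, with 62.1% to 67.4% of probe sets present on each. The 3′ to 5′ signal ratio of Actb, a measure of RNA integrity, was 1.12 to 1.24 at 1 hr, 1.33 to 1.36 at 24 hrs and 1.22 to 1.30 at 48 hrs. All 24-hr arrays thus lay above all 1-hr arrays in that ratio. The same ratio of Gapdh went the other way, at 0.82 to 0.83 at 1 hr and 0.75 to 0.78 at 24 hrs. It was 0.75 to 0.85 at 48 hrs. The part of either ratio in the results was not tested.

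The identity of the cells was checked on marker genes. All 8 adipocyte markers with a probe set were measured, led by Fabp4, a fatty acid carrier, and Adipoq (adiponectin), and their summed signal was 24800 to 26070 at 1 hr, 24680 to 27830 at 24 hrs and 26250 to 29830 at 48 hrs. Adipoq read 5874, 5481 and 6041 at 1 hr, 6972, 5775 and 7062 at 24 hrs, and 5735, 6630 and 6615 at 48 hrs, which overlap. The skeletal muscle factors Myod1 and Myog, the endothelial genes Pecam1 and Cdh5 and the proliferation marker Mki67 had group means under the presence level. Some other members of these lists were above it. Mean signals at 1, 24 and 48 hrs were 23.4, 22.3 and 29.0 for Ckm (muscle) and 44.0, 37.4 and 43.6 for Kdr (endothelial). Those of Cdk1 (dividing cells) were 63.7, 74.9 and 66.1. Of bone markers Sp7 read 60.4, 52.1 and 34.6. The smooth muscle genes Tagln, Cnn1 and Myh11 were under the level, but Acta2 read 134, 129 and 239. Acta2 was called higher at 48 hrs (log2 0.79 ± 0.14, adjusted p = 0.00316), with overlap. Macrophage markers were weak, with Itgam and Tyrobp under that level in every group mean, and the summed signal of the 5 markers was 278 to 482 at 1 hr, 185 to 231 at 24 hrs and 132 to 182 at 48 hrs. Cd68, a lysosomal gene, was the 1 macrophage marker called lower.

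**Figure D1:**
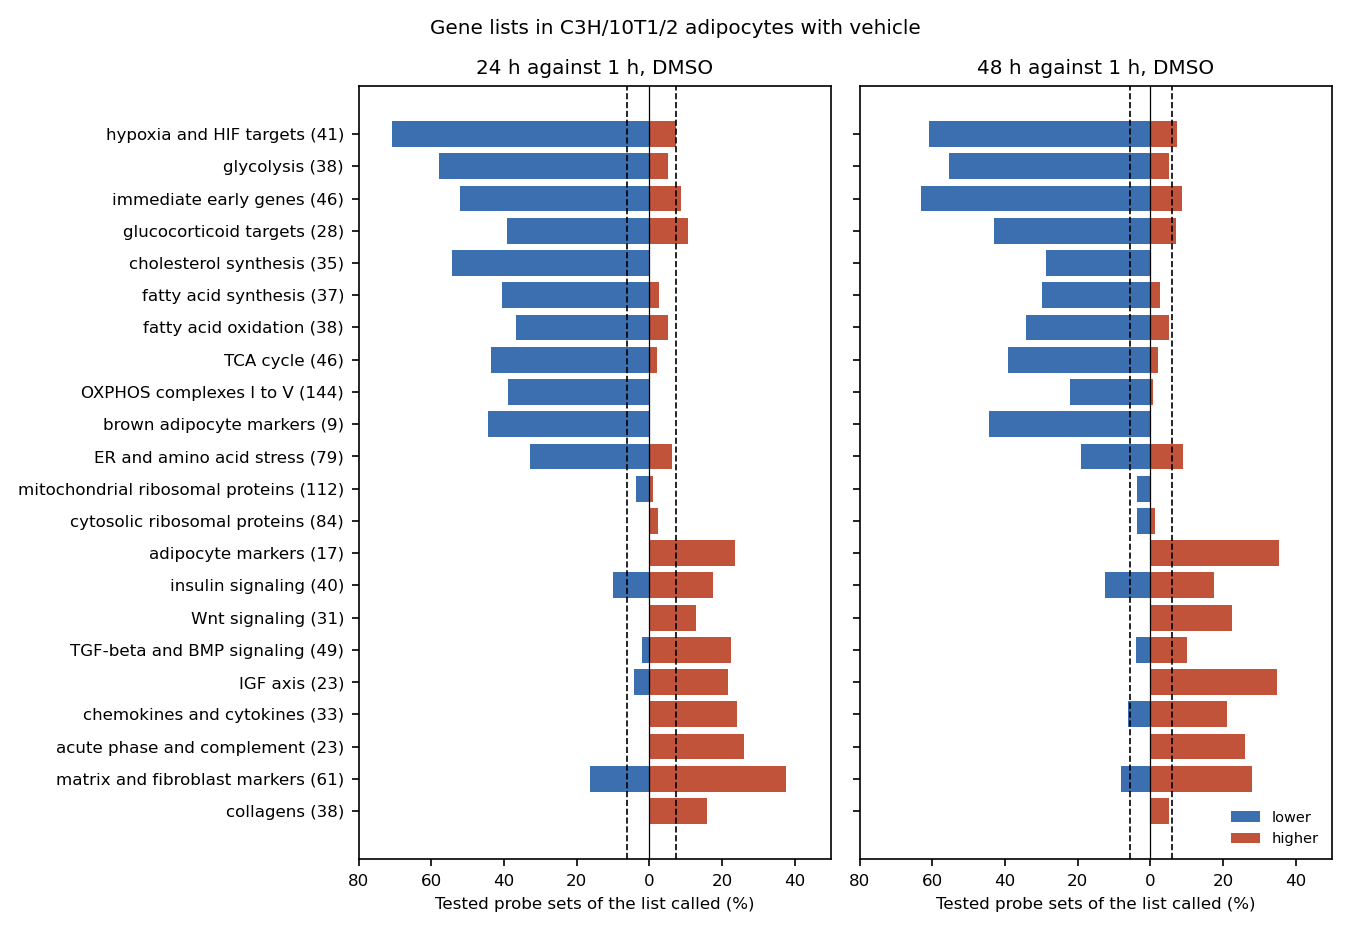
Share of the tested probe sets of each gene list called higher or lower in C3H/10T1/2 DMSO arrays at 24 hrs and 48 hrs against 1 hr (limma, adjusted p under 0.05), with dashed lines at the share of all tested probe sets called. Hypoxia targets, glycolysis, immediate early genes, cholesterol synthesis and the mitochondrial energy lists lean to lower calls, and matrix, chemokine and acute phase lists to higher calls.

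Genes that HIF turns on in low oxygen had lower signal after 1 and 2 days in DMSO. Of the 41 tested probe sets of the hypoxia list, which stood for 20 genes, 29 were lower and 3 higher at 24 hrs, beside 6.06% and 7.34% of all tested probe sets. At 48 hrs 25 were lower and 3 higher, beside 5.73% and 5.94%. The median log2 difference of the list was -1.19 at 24 hrs and -0.88 at 48 hrs. The 13 genes lower at 24 hrs were the oxygen-sensing prolyl hydroxylases Egln1 and Egln3, the glucose transporter Slc2a1, the glycolytic enzymes Pgk1 and Ldha, the pyruvate dehydrogenase kinase Pdk1, the collagen prolyl hydroxylases P4ha1 and P4ha2, and Ero1a, Car9, Ndrg1, Higd1a and Mxi1.

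Car9, a carbonic anhydrase at the cell surface, had signals of 2029, 1698 and 2256 at 1 hr, 462, 151 and 524 at 24 hrs, and 680, 188 and 486 at 48 hrs. No late array came near any 1-hr array, and replicate 2 was the lowest at each time. The log2 difference was -2.58 ± 0.25 at 24 hrs (adjusted p = 6.96e-05) and -2.32 ± 0.25 at 48 hrs (adjusted p = 0.000114). Egln1 went from 1404, 1529 and 1807 at 1 hr to 311, 197 and 338 at 24 hrs, and stood at 769, 298 and 342 at 48 hrs. Its groups did not overlap, and the first replicate at 48 hrs lay highest among the late arrays. Egln1 fell by 2.52 on the log2 scale at 24 hrs (SE 0.25, adjusted p = 7.36e-05) and by 1.88 at 48 hrs (SE 0.25, adjusted p = 0.000497).

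Ero1a, an oxidase for the forming of disulfide bonds in the endoplasmic reticulum, had signals of 3793, 3590 and 4789 at 1 hr, 1219, 678 and 954 at 24 hrs, and 1596, 899 and 1311 at 48 hrs. The groups stood well apart, with log2 differences of -2.12 ± 0.15 (adjusted p = 7.25e-06) and -1.71 ± 0.15 (adjusted p = 2.62e-05). Slc2a1 (GLUT1), the glucose transporter that works without insulin, read 1076, 1384 and 1475 at 1 hr, 424, 311 and 486 at 24 hrs, and 345, 218 and 495 at 48 hrs. All late arrays were below all 1-hr arrays, by 1.70 ± 0.19 at 24 hrs and 1.96 ± 0.19 at 48 hrs on the log2 scale. P4ha2, which hydroxylates proline in collagen, differed by -1.68 ± 0.17 and -1.15 ± 0.17, and Pdk1, which keeps pyruvate out of the mitochondria, by -1.36 ± 0.13 and -0.89 ± 0.13.

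Adm and Pfkfb3 were higher. Adm, the vasodilator peptide adrenomedullin, had signals of 44.0, 42.4 and 58.2 at 1 hr, 149, 145 and 134 at 24 hrs, and 214, 160 and 207 at 48 hrs. It was higher on every late array, by 1.58 ± 0.16 at 24 hrs (adjusted p = 9.15e-05) and 2.01 ± 0.16 at 48 hrs (adjusted p = 1.52e-05) on the log2 scale. Its mean had reached 158 by 7 hrs, and against the 7-hr arrays its log2 difference was -0.14 at 24 hrs and gave no call. Pfkfb3, which makes the activator of glycolytic phosphofructokinase, was higher by 1.49 ± 0.18 at 24 hrs and 0.99 ± 0.18 at 48 hrs.

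The DMSO arrays of 2, 4 and 7 hrs placed these falls in time. The mean signal of Ero1a was 4057 at 1 hr, 3029 at 2 hrs, 1384 at 4 hrs and 1243 at 7 hrs, against 950 at 24 hrs and 1269 at 48 hrs. Most of its fall thus lay before 7 hrs, and against the 7-hr arrays its late levels gave no call. The mean signal of Car9 was 1994, 1831, 1550 and 1275 at 1, 2, 4 and 7 hrs, and both late times were still called lower than 7 hrs (log2 -1.94 and -1.68). Over the list, 21 of the 41 probe sets were called lower at 24 hrs than at 7 hrs and 14 at 48 hrs, in place of 29 and 25 against 1 hr. The 7-hr arrays were not in the main fit, so counts against 7 hrs, here and for later lists, come from another fit. Against 7 hrs, 1282 probe sets in all were called at 24 hrs and 1622 at 48 hrs, in either direction. The share of all probe sets called in each direction against 7 hrs is not given. Whether this or any later list leaned beyond all probe sets after 7 hrs was therefore not tested. P4ha2 at 48 hrs was not below its 7-hr level (log2 0.10, not called).

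Glycolysis, the cytosolic breakdown of glucose, also had more lower than higher calls, with several genes counted in both lists (Slc2a1, Pgk1, Ldha and Pfkfb3 among them). Its 38 tested probe sets gave 22 lower and 2 higher calls at 24 hrs, and 21 and 2 at 48 hrs. The medians were -0.57 and -0.52. Pfkp, the platelet form of phosphofructokinase, was lower by -1.53 ± 0.16 and -1.18 ± 0.16 on the log2 scale. Hk1, which traps glucose as its phosphate, differed by -0.92 ± 0.14 at 24 hrs and -1.29 ± 0.14 at 48 hrs. Pgam1, phosphoglycerate mutase, had signals of 3056, 2754 and 2848 at 1 hr against 1659, 1216 and 1547 at 24 hrs. The glycogen-handling genes Gbe1, the branching enzyme, and Stbd1, a glycogen-binding protein, fell as well, by 2.18 and 2.24 at 24 hrs on the log2 scale.

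**Figure D2:**
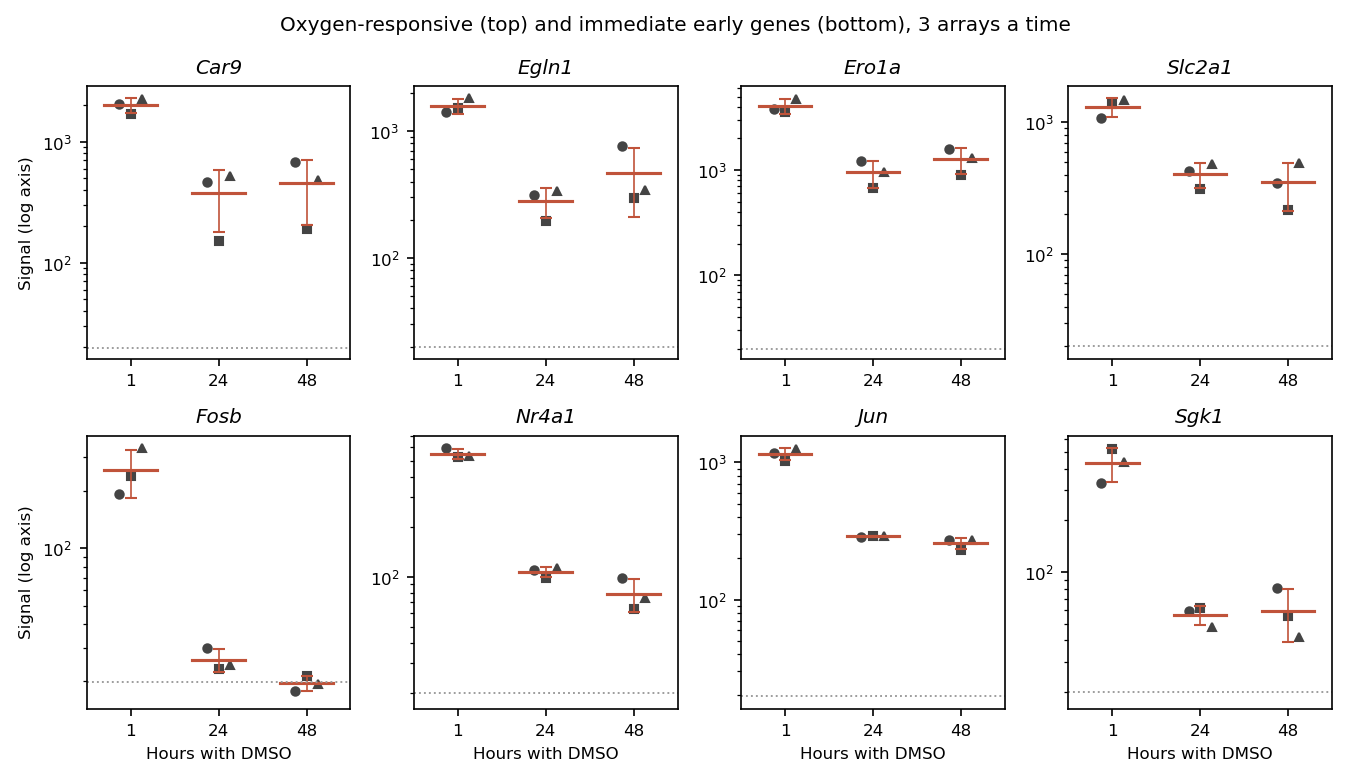
Signal (log axis) on each of the 9 arrays for the HIF targets Car9, Egln1, Ero1a and Slc2a1 and for the early response genes Fosb, Nr4a1, Jun and Sgk1 at 1, 24 and 48 hrs, with circle, square and triangle for replicates 1 to 3, a line for the mean, a bar for the SD and a dotted line at the presence level of 19.9. In all 8 genes the 3 arrays of each late time lie below the 1-hr arrays.

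The upstream sequences of 4 of the lowered HIF targets are shown because each holds the core of the hypoxia response element, ACGTG, within 250 bases before the gene's start. The motif was searched on both strands and was chosen after the results were known. It lies inside the E-box CACGTG, and it is in capitals here, as CACGT where it is on the other strand. The sequences are from RefSeq, build GRCm38.p6, and are written 5′ to 3′ on the strand of the gene.

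Car9, chr4:43506776-43507025, plus strand: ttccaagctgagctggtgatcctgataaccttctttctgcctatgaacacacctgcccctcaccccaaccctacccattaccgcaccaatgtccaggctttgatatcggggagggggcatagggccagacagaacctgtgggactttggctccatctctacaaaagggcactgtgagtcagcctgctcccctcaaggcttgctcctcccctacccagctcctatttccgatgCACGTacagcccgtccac
Egln1, chr8:124949255-124949504, minus strand: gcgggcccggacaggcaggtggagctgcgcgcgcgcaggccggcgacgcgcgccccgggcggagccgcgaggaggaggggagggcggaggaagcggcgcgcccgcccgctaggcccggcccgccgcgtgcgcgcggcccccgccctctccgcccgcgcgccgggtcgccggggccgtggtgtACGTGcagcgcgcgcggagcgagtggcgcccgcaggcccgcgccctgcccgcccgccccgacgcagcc
Ero1a, chr14:45318573-45318822, minus strand: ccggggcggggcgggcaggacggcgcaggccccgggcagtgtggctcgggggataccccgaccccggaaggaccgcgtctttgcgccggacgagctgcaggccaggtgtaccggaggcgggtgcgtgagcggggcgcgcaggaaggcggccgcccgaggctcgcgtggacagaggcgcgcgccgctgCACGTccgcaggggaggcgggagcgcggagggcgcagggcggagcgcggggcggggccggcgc
P4ha2, chr11:54100674-54100923, plus strand: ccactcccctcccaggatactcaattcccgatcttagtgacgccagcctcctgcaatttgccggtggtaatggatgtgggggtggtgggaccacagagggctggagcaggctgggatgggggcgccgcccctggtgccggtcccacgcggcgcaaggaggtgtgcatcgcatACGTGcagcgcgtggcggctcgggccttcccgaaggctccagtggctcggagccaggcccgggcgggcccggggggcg

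The match began 18 bases before the start of Car9, 68 before Egln1, 63 before Ero1a and 78 before P4ha2. ACGTG was in 19 of 30 promoters of 21 genes of the hypoxia list (63.3%), against 6447 of 32851 promoters in all (19.6%), each counted from 250 bases before to 50 after the start. Other lists also held it, with 46.3% of promoters for glycolysis and 38.5% for fatty acid synthesis. The share was 32.5% for immediate early genes and 20% for cholesterol synthesis. A match of these letters is a description of the window and not a bound site.

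Immediate early genes, which were high at 1 hr, had mostly lower signal later. Of 46 tested probe sets for 32 genes, 24 were lower and 4 higher at 24 hrs, and 29 and 4 at 48 hrs. The median log2 difference was -0.91 at 24 hrs and -0.95 at 48 hrs. Fosb, a partner in the AP-1 transcription factor, read 193, 240 and 335 at 1 hr, 29.9, 23.3 and 24.4 at 24 hrs, and 17.9, 21.3 and 19.4 at 48 hrs. The log2 difference was -3.28 ± 0.22 at 24 hrs (adjusted p = 5.08e-06). At 48 hrs 2 of 3 arrays were under the presence level, which gives a signal at least 12.25-fold lower than at 1 hr (adjusted p = 1.84e-06). Nr4a1 (Nur77), an orphan nuclear receptor, had signals of 595, 523 and 530 at 1 hr, 110, 98.5 and 113 at 24 hrs, and 98.2, 63.7 and 74.7 at 48 hrs. The late arrays were far below the early ones, with log2 differences of -2.36 ± 0.14 and -2.82 ± 0.14.

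Jun, which pairs with Fos proteins in AP-1, was at 1162, 1025 and 1260 at 1 hr and at 285, 288 and 291 at 24 hrs. Its 48-hr arrays, at 273, 231 and 269, were also below every 1-hr array (log2 -2.16 ± 0.12, adjusted p = 1.03e-06). Atf3, a stress-induced repressor, differed by -3.15 ± 0.25 at 24 hrs, Klf6, a zinc-finger factor, by -1.67 ± 0.16, and Dusp1, a phosphatase that switches off MAP kinases, by -0.98 ± 0.14. Sgk1, a kinase induced by serum and glucocorticoids, had signals of 331, 525 and 438 at 1 hr, 59.7, 61.7 and 48.1 at 24 hrs, and 81.3, 55.2 and 41.8 at 48 hrs. The groups did not overlap, and the log2 difference was -2.92 ± 0.22 at 24 hrs (adjusted p = 1.33e-05) and -2.89 ± 0.22 at 48 hrs (adjusted p = 1.06e-05). Ier3, an early gene linked to cell survival, went the other way, from 119, 140 and 183 at 1 hr to 481, 343 and 415 at 24 hrs (log2 1.5 ± 0.21, adjusted p = 0.000614).

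Most of these falls had taken place soon after the 1-hr point. Mean Fosb signal was 256 at 1 hr, 65.9 at 2 hrs and 25.2 at 4 hrs, and mean Jun signal was 1149 at 1 hr and 386 at 2 hrs. Against the 7-hr arrays 3 of the immediate early probe sets were called lower at 24 hrs and 6 at 48 hrs. A lean of the list beyond all probe sets after 7 hrs was not tested. Ier3 was at 728 at 7 hrs, so that its 24-hr level of 413 lay above the 1-hr level of 147 but below the 7-hr one.

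Sterol synthesis genes had lower signal than at 1 hr. Of 35 tested probe sets of the cholesterol synthesis list 19 were lower and none higher at 24 hrs, and 10 were lower at 48 hrs, with medians of -0.59 and -0.27. None of the list was called between 48 and 24 hrs. Without the replicate block the 48-hr count was 5, and it was 6 without the 1-hr array of replicate 2 or any single 48-hr array. Pmvk, phosphomevalonate kinase, had signals of 914, 899 and 553 at 1 hr, 259, 201 and 144 at 24 hrs, and 407, 467 and 246 at 48 hrs. Replicate 3 was the lowest at each time, and within every replicate the 24-hr array was below the 48-hr array. The log2 difference was -1.97 ± 0.13 at 24 hrs (adjusted p = 5.08e-06) and -1.09 ± 0.13 at 48 hrs (adjusted p = 0.000265).

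Lss, which closes the sterol rings, read 947, 1102 and 678 at 1 hr, 399, 279 and 228 at 24 hrs, and 563, 627 and 401 at 48 hrs. The 24-hr arrays were clearly below (log2 -1.60 ± 0.15, adjusted p = 3.80e-05). At 48 hrs the log2 difference was -0.77 ± 0.15 (adjusted p = 0.00483), a call that was lost without the replicate block (adjusted p = 0.0603). Cyp51, which removes a methyl group from lanosterol, differed by -1.29 ± 0.14 at 24 hrs and -0.79 ± 0.14 at 48 hrs, and the 48-hr call was likewise lost without the block. The decline began before 24 hrs, with mean Lss signals of 909, 780, 685 and 363 and mean Pmvk signals of 789, 735, 552 and 361 at 1, 2, 4 and 7 hrs. Against the 7-hr arrays 3 probe sets of the list were lower at 24 hrs and 2 at 48 hrs. Whether the list still leaned lower than all probe sets after 7 hrs was not tested. At 48 hrs Lss was higher than at 7 hrs (log2 0.54, adjusted p = 0.0384), and Cyp51 (log2 0.10) and Pmvk (log2 0.016) were not called. The promoters of Lss and Cyp51 are shown with the CCAAT box, a site of the factor NF-Y, in capitals (ATTGG on the other strand).

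Lss, chr10:76531355-76531604, plus strand: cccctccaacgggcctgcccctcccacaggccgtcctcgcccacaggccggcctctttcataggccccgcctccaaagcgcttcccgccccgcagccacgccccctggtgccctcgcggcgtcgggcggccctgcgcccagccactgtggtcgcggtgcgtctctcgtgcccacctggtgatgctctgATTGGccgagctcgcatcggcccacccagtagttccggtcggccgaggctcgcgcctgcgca
Cyp51, chr5:4104698-4104947, minus strand: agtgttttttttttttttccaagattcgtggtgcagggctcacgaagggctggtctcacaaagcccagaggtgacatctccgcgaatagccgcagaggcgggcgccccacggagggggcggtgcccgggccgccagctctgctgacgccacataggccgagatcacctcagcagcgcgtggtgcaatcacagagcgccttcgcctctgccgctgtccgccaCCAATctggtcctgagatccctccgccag

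The CCAAT box began 62 bases before the start of Lss and 29 before that of Cyp51. It was in 16 of 20 promoters of 17 cholesterol synthesis genes (80%) and in 37.4% of all promoters, and the sterol response element TCACNCCAC was in 1 of those 20 (5%) and in 1.24% of all.

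Fatty acid synthesis had 15 of 37 probe sets lower and 1 higher at 24 hrs, and 11 lower and 1 higher at 48 hrs. Thrsp (Spot 14), a lipogenic regulator, had signals of 144, 151 and 136 at 1 hr, 31.9, 20.6 and 21.2 at 24 hrs, and 25.5, 35.3 and 19.6 at 48 hrs. It was near the presence level at both late times, and the log2 difference was -2.58 ± 0.23 (adjusted p = 3.42e-05) and -2.46 ± 0.23 (adjusted p = 3.65e-05). Acss2, which makes acetyl-CoA from acetate in the cytosol, read 782, 844 and 1053 at 1 hr, 284, 200 and 170 at 24 hrs, and 411, 339 and 304 at 48 hrs. Its groups did not overlap (log2 -2.06 ± 0.18 and -1.35 ± 0.18). Elovl3, a fatty acid elongase abundant in brown fat, differed by -2.35 ± 0.24 and -2.33 ± 0.24, with late means of 22.8 and 23.6, near the presence level. Srebf1, the gene of the SREBP-1 factor, was by contrast higher, with 880, 1135 and 1212 at 1 hr and 1952, 1859 and 2166 at 24 hrs (log2 0.90 ± 0.12, adjusted p = 0.000524). Against the 7-hr arrays Srebf1 was not called at 24 or 48 hrs.

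Genes of mitochondrial energy metabolism were lower at many probe sets, by a small median. Of the 221 tested probe sets for fatty acid oxidation, the TCA cycle and OXPHOS (the respiratory complexes), 87 were lower and 3 higher at 24 hrs, and 60 and 3 at 48 hrs. The median log2 difference was -0.33 at 24 hrs and -0.27 at 48 hrs. OXPHOS subunits gave 56 of 144 probe sets lower and none higher at 24 hrs and 32 lower and 1 higher at 48 hrs, the TCA cycle 20 and 18 of 46 lower, and fatty acid oxidation 14 and 13 of 38 lower. The joint count at 24 hrs was 52, 49 and 46 without replicate 1, 2 or 3 of the 1-hr arrays and 47 without replicate 2 of the 24-hr arrays. At 48 hrs it was 37 and 32 without replicate 2 or 3 of the 1-hr arrays and 34 without replicate 1 of the 48-hr arrays. Against the 7-hr arrays it was 23 at 24 hrs and 20 at 48 hrs, with no share of all probe sets to set beside it. Mitochondrial ribosomal proteins, by comparison, had 4 of 112 probe sets lower at each time.

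Hadhb, which carries the last step of long-chain β-oxidation, had signals of 3821, 4154 and 4742 at 1 hr, 2032, 1903 and 2141 at 24 hrs, and 1905, 1895 and 2219 at 48 hrs. The late arrays were all well below the early ones (log2 -1.06 ± 0.10 and -1.08 ± 0.10). Acaa1b, the peroxisomal thiolase, read 4258, 4743 and 4634 at 1 hr, 1268, 1634 and 1657 at 24 hrs, and 1104, 1390 and 1508 at 48 hrs, and the log2 differences were -1.59 ± 0.10 and -1.78 ± 0.10. It belongs to the peroxisome list and not to the mitochondrial ones. That list was mixed, with 4 of 40 probe sets higher and 3 lower at each time. Cycs, cytochrome c, differed by -1.01 ± 0.13 at 24 hrs and -0.80 ± 0.13 at 48 hrs, and Ogdh, a subunit of the 2-oxoglutarate dehydrogenase of the TCA cycle, by -0.77 ± 0.12 and -0.92 ± 0.12. Acaa2, the mitochondrial thiolase, differed by -0.76 ± 0.11 and -1.08 ± 0.11. Among respiratory subunits Atp5md, of the ATP synthase, differed by -1.48 ± 0.17 at 24 hrs and -1.09 ± 0.17 at 48 hrs. Of complex I, Ndufb6 differed by -0.82 ± 0.11 at 24 hrs and -0.53 ± 0.11 at 48 hrs, the latter not called without replicate 3 of the 1-hr arrays or with no intensity trend in the model. Ndufs1 differed by -0.45 ± 0.13 at 24 hrs (adjusted p = 0.034), a call lost without any single 1-hr array, without replicate 2 or 3 of the 24-hr arrays, without the block, the trend or the filter, and with quantile normalisation, and by -0.70 ± 0.13 at 48 hrs. Lonp1, the protease of the mitochondrial matrix, differed by -1.14 ± 0.12 and -1.55 ± 0.12. Pdk4, which shuts off pyruvate oxidation and is a known PPAR target, had signals of 480, 459 and 491 at 1 hr, 130, 164 and 136 at 24 hrs, and 133, 114 and 145 at 48 hrs, a log2 difference of -1.74 ± 0.15 (adjusted p = 2.23e-05) and -1.87 ± 0.15 (adjusted p = 1.16e-05).

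Some brown adipocyte genes were lower, while Ucp1, the heat-producing uncoupler, was under the presence level on all 9 arrays (highest signal 5.6). Of 7 tested brown adipocyte genes 4 were lower at each time and none was higher. Cidea, a lipid droplet protein, had signals of 1204, 1398 and 1752 at 1 hr, 214, 300 and 527 at 24 hrs, and 168, 173 and 299 at 48 hrs. Replicate 3 was the highest at each time and no late array reached the 1-hr range (log2 -2.15 ± 0.15, adjusted p = 7.25e-06, and -2.80 ± 0.15, adjusted p = 9.67e-07). Cox7a1, a cytochrome c oxidase subunit of heart, muscle and brown fat, read 622, 607 and 658 at 1 hr, 240, 138 and 206 at 24 hrs, and 176, 66.7 and 140 at 48 hrs (log2 -1.73 ± 0.20 and -2.41 ± 0.20). Cox8b, another such subunit, had signals between 1544 and 2104 (log2 -0.23 ± 0.12, adjusted p = 0.22 at 24 hrs), and Dio2, which activates thyroid hormone, differed by -0.12 at 24 hrs (adjusted p = 0.777). Fabp3, the heart-type fatty acid carrier, went from 155, 138 and 205 at 1 hr to 25.2, 17.7 and 20 at 24 hrs (log2 -2.98 ± 0.21). At 48 hrs its mean was under the presence level, which gives a signal at least 7.82-fold lower than at 1 hr. Myoglobin (Mb) had signals of 264, 315 and 644 at 1 hr, 73.6, 78.3 and 375 at 24 hrs, and 49.6, 20.8 and 75.6 at 48 hrs. Its 24-hr arrays overlapped those of 1 hr, and the 24-hr call (log2 -1.54 ± 0.29, adjusted p = 0.00474) was lost without the replicate block (adjusted p = 0.124).

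**Figure D3:**
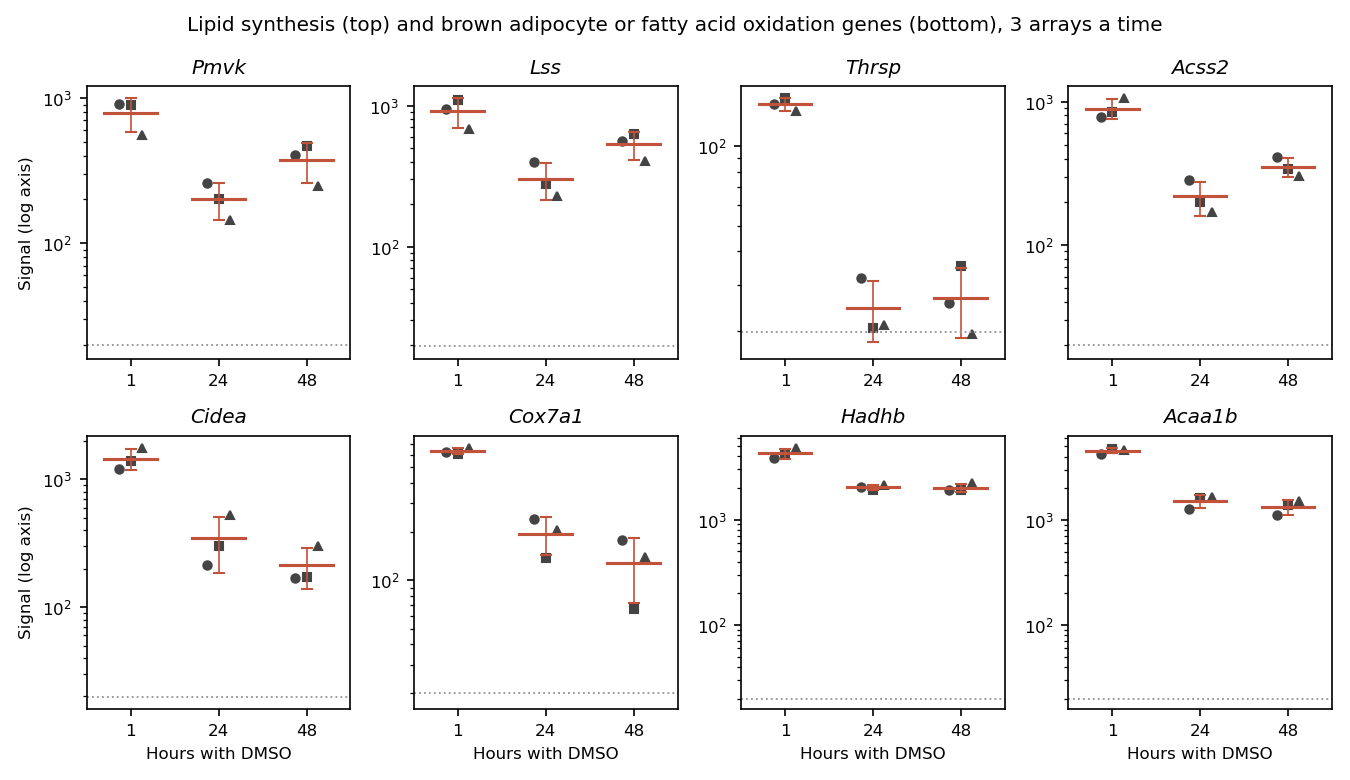
Signal (log axis) on each of the 9 arrays for Pmvk, Lss, Thrsp and Acss2 (lipid synthesis) and Cidea, Cox7a1, Hadhb and Acaa1b (brown fat and fatty acid oxidation) at 1, 24 and 48 hrs, with circle, square and triangle for replicates 1 to 3, a line for the mean, a bar for the SD and a dotted line at the presence level of 19.9. Mean Pmvk was 789, 201 and 373 and mean Cidea 1451, 347 and 214 at the successive times.

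Genes of endoplasmic reticulum and amino acid stress leaned to lower calls. The list for endoplasmic reticulum and amino acid stress held 79 tested probe sets, with 26 lower and 5 higher calls at 24 hrs and 15 and 7 at 48 hrs. Lower calls thus made up 32.9% and 19.0% of the list, beside 6.06% and 5.73% over the whole array set tested. Higher calls made up 6.33% and 8.86%, beside 7.34% and 5.94%. Trib3, a pseudokinase induced by stress, differed by -1.54 ± 0.19 at 24 hrs and -1.21 ± 0.19 at 48 hrs, and Mthfd2, a mitochondrial folate enzyme, by -1.91 ± 0.17 and -1.59 ± 0.17. Phgdh, the first enzyme of serine synthesis, moved up, with signals of 437, 448 and 559 at 1 hr and 1256, 1592 and 1291 at 24 hrs (log2 1.52 ± 0.15, adjusted p = 7.25e-05). Hmox1 (heme oxygenase), an enzyme of the oxidative stress response, read 3077, 2799 and 2843 at 1 hr, 581, 451 and 820 at 24 hrs, and 715, 625 and 969 at 48 hrs. It was lower on every late array (log2 -2.28 ± 0.15 and -1.94 ± 0.15), while Gpx1, a glutathione peroxidase, was higher by 1.49 ± 0.11 and 1.22 ± 0.11.

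Among single genes that rose, G0s2, the inhibitor of adipose triglyceride lipase, stood out. Its signals were 747, 429 and 619 at 1 hr, 5047, 3886 and 3820 at 24 hrs, and 4507, 3808 and 4375 at 48 hrs. Every late array was far above every early one (log2 2.85 ± 0.13, adjusted p = 4.18e-07 at 24 hrs, and 2.85 ± 0.13, adjusted p = 3.70e-07 at 48 hrs), and the mean had already reached 3435 by 7 hrs. Cyp2f2, a cytochrome P450 best known from lung, read 580, 707 and 343 at 1 hr, 3224, 3198 and 2375 at 24 hrs, and 3516, 4108 and 2694 at 48 hrs (log2 2.48 ± 0.13 and 2.70 ± 0.13). Wfdc21, a small secreted protein of the whey acidic protein family, was at 477, 590 and 301 at 1 hr, 2619, 2389 and 2320 at 24 hrs, and 3274, 4095 and 2834 at 48 hrs. Its mean at 7 hrs, 541, was still close to the 456 of 1 hr, so that this rise came between 7 and 24 hrs (log2 2.24 against 7 hrs).

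The lipid carriers Apoe and Apoc1, neighbours in 1 apolipoprotein cluster, rose together. Apoe had signals of 420, 337 and 457 at 1 hr, 1609, 1201 and 1956 at 24 hrs, and 1142, 1076 and 1442 at 48 hrs (log2 1.96 ± 0.11, adjusted p = 3.58e-06, and 1.59 ± 0.11, adjusted p = 7.10e-06). Apoc1 was higher by 2.31 ± 0.21 and 1.91 ± 0.21. Prps1, which makes the ribose phosphate for nucleotides, was higher by 1.98 ± 0.20 and 2.16 ± 0.20, and Rasd1, a small G protein induced by dexamethasone, by 2.06 ± 0.13 and 2.31 ± 0.13. Klf15, a factor of adipocyte and liver metabolism, went from 63.7, 27.9 and 33.1 at 1 hr to 153, 158 and 183 at 24 hrs (log2 2.07 ± 0.26, adjusted p = 0.000353). Neither Klf15 nor Rasd1 was called at 24 or 48 hrs against the 7-hr arrays.

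**Figure D4:**
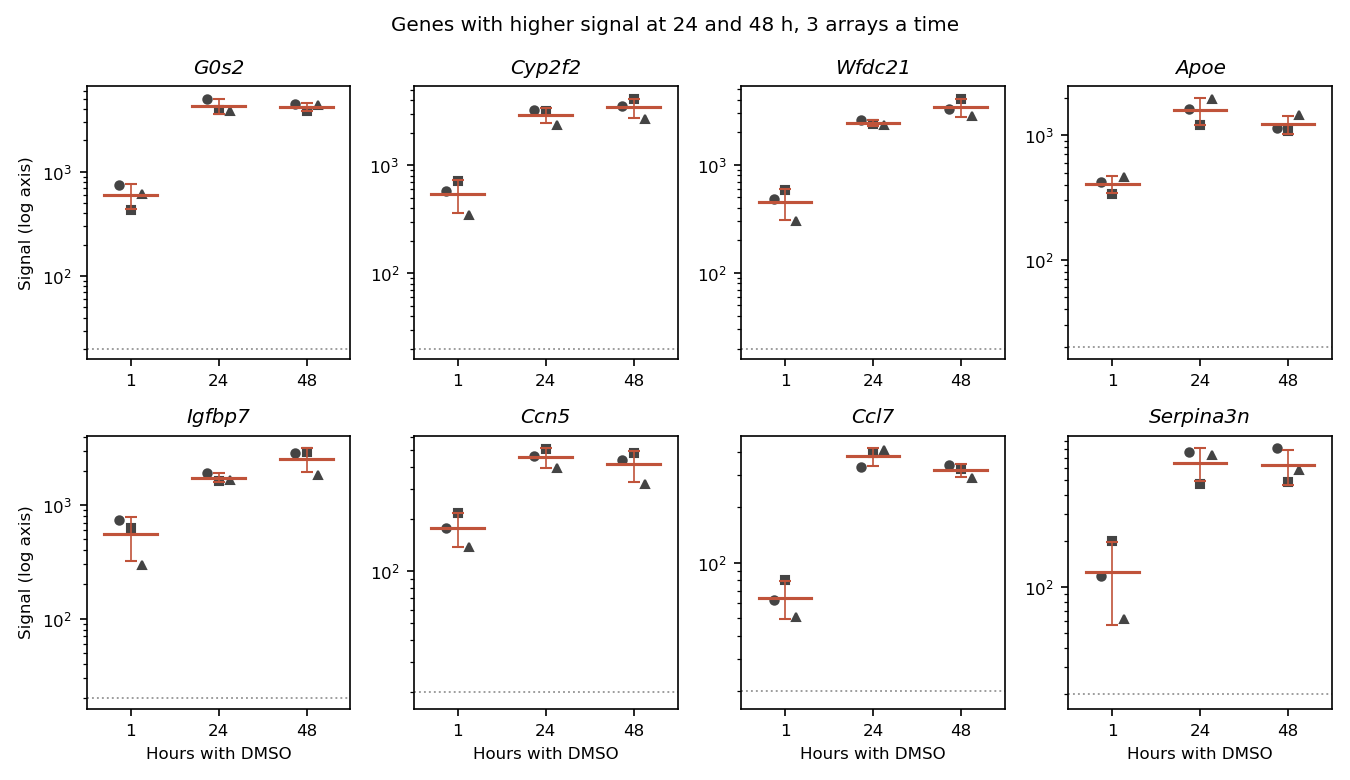
Signal (log axis) on each of the 9 arrays for G0s2, Cyp2f2, Wfdc21 and Apoe and for Igfbp7, Ccn5, Ccl7 and Serpina3n at 1, 24 and 48 hrs, with circle, square and triangle for replicates 1 to 3, a line for the mean, a bar for the SD and a dotted line at the presence level of 19.9. In all 8 genes the 3 arrays of each late time lie above the 1-hr arrays.

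Extracellular matrix and fibroblast genes leaned upward. Of 61 tested probe sets 23 were higher and 10 lower at 24 hrs, and 17 higher and 5 lower at 48 hrs, with medians of 0.26 and 0.08. Among the genes lower at 24 hrs were the collagen-modifying enzymes Plod1, Plod2, P4ha1 and P4ha2. The count of higher probe sets was 15 without replicate 2 of the 24-hr arrays, and at 48 hrs it was 9, 9 and 8 without replicate 1, 2 or 3 of the 1-hr arrays, 10 and 9 without replicate 1 or 3 of the 48-hr arrays, and 10 without the replicate block. Against the 7-hr arrays it was 9 at 24 hrs and 6 at 48 hrs, again with no share of all probe sets to set beside it. Igfbp7, a secreted binding protein of insulin-like growth factors, read 739, 622 and 296 at 1 hr, 1931, 1631 and 1676 at 24 hrs, and 2892, 2913 and 1855 at 48 hrs (log2 1.76 ± 0.19 and 2.28 ± 0.19). Ccn5, a matricellular protein, had signals of 179, 217 and 138 at 1 hr and 464, 512 and 394 at 24 hrs (log2 1.38 ± 0.12, adjusted p = 3.17e-05), with 443, 481 and 320 at 48 hrs. Sparcl1 (hevin) was under the presence level on all 1-hr arrays and at 78.8, 54.2 and 64.0 at 24 hrs, which is at least 3.26-fold higher, and at least 2.70-fold higher at 48 hrs.

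Mgp, matrix Gla protein, was higher by 1.96 ± 0.22 and 1.44 ± 0.22 on the log2 scale. Pdgfrb, a growth factor receptor of mesenchymal precursors, went from 73.5, 87.0 and 61.5 at 1 hr to 185, 194 and 149 at 24 hrs (log2 1.26 ± 0.16, adjusted p = 0.000398) and differed by 0.91 ± 0.16 at 48 hrs. Fn1 (fibronectin) was higher by 0.92 ± 0.11 at 24 hrs. Its 48-hr call (log2 0.54 ± 0.11, adjusted p = 0.00805) was lost without replicate 1 of the 1-hr arrays, without the block or with no trend. Col1a1, the main fibrillar collagen, gave only 0.70 ± 0.14 at 24 hrs (adjusted p = 0.00543, and 0.058 without the block), and its 48-hr arrays overlapped those of 1 hr. Other fibroblast or precursor markers were mixed. Means at the successive times were 5260, 4468 and 4356 for Vim and 35.7, 29.0 and 25.3 for Dlk1. They were 137, 228 and 147 for Pdgfra and 48.3, 81.0 and 78.7 for Thy1. Col3a1 was not called, and Cd34 was under the presence level. The summed signal of 9 such markers was 11830 to 13310 at 1 hr. It was 12670 to 16250 at 24 hrs and 12730 to 13390 at 48 hrs, which overlap. Over all 38 collagen probe sets 6 gave a higher call at 24 hrs and 2 did at 48 hrs, with none lower. Higher calls thus made up 15.8% and 5.26% of the collagens, beside 7.34% and 5.94% of all tested probe sets.

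Chemokines and acute phase proteins also leaned upward. Of the macrophage markers Cd68 had mean signals of 248, 93.8 and 54.1 at the successive times, Csf1r 59.7, 76.9 and 61.9, Adgre1 31.7, 21.1 and 30.6, and Tyrobp 7.3, 18.1 and 14.6, and their part in the chemokine calls was not tested. Of 33 chemokine and cytokine probe sets 8 were higher and none lower at 24 hrs, and 7 were higher and 2 lower at 48 hrs. Ccl7, a monocyte attractant, had signals of 62.2, 80.5 and 50.3 at 1 hr, 331, 396 and 410 at 24 hrs, and 341, 323 and 289 at 48 hrs. The groups stood apart (log2 2.58 ± 0.16, adjusted p = 4.31e-06, and 2.33 ± 0.16, adjusted p = 5.59e-06). Ccl2, from the same chemokine cluster, was higher by 1.88 ± 0.20 and 1.39 ± 0.20. Cxcl9, an interferon-induced T cell attractant, was under the presence level on all 1-hr arrays and at least 1.70-fold higher at 24 hrs and 1.93-fold higher at 48 hrs. Mean Ccl7 was already 349 at 4 hrs and mean Ccl2 1773, and neither gene was called at 24 or 48 hrs against 7 hrs, with Ccl2 at -0.32 on the log2 scale at 48 hrs.

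The acute phase list had 6 of 23 probe sets higher at each time and none lower. Serpina3n, a serine protease inhibitor, read 118, 200 and 61.4 at 1 hr, 761, 469 and 727 at 24 hrs, and 809, 488 and 585 at 48 hrs. All late arrays were above all early ones (log2 2.5 ± 0.33, adjusted p = 0.000439, and 2.44 ± 0.33, adjusted p = 0.000541). Orm1, an acute phase glycoprotein, was higher by 0.94 ± 0.15 and 1.57 ± 0.15. Ptx3, a pattern recognition protein, had signals of 747, 751 and 265 at 1 hr, 1013, 1192 and 963 at 24 hrs, and 1403, 1215 and 1188 at 48 hrs. Replicate 3 at 1 hr lay far below all other arrays, and the 24-hr call (log2 0.99 ± 0.24, adjusted p = 0.0181) was lost without replicate 2 or 3 of the 24-hr arrays, without the block and with no trend.

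Genes that restrain or carry insulin, IGF and TGF-β family signals changed as well. Socs3, which blocks cytokine and insulin receptor signalling, had signals of 26.3, 50 and 91.3 at 1 hr, 308, 291 and 185 at 24 hrs, and 320, 222 and 335 at 48 hrs. The 1-hr arrays were low and spread and the late ones did not reach down to them (log2 2.37 ± 0.35, adjusted p = 0.000990, and 2.54 ± 0.35, adjusted p = 0.000676), and the mean at 7 hrs was 329, above both late means (log2 -0.36 and -0.19 against 7 hrs, not called). Insulin signalling was mixed. Of its 40 probe sets 7 were higher and 4 lower at 24 hrs, and 7 and 5 at 48 hrs. These were 17.5% and 10.0% at 24 hrs, beside 7.34% and 6.06% of all tested probe sets. At 48 hrs they were 17.5% and 12.5%, beside 5.94% and 5.73%. By gene, 4 were higher and 3 lower at each time. Irs1, the main docking protein of the insulin receptor, was higher by 0.86 ± 0.12 and 0.95 ± 0.12, and Akt2, the insulin-responsive Akt kinase, by 0.79 ± 0.13 and 0.71 ± 0.13.

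Igfals, which stabilises circulating IGF, was at 30.0, 30.9 and 20.7 at 1 hr and at 162, 106 and 101 at 24 hrs (log2 2.16 ± 0.17, adjusted p = 1.35e-05). Inhbb, a subunit of activin B, had signals of 101, 68.3 and 92.3 at 1 hr, 317, 342 and 397 at 24 hrs, and 695, 471 and 460 at 48 hrs. All its 48-hr arrays were above all 24-hr arrays (log2 2.03 ± 0.17 at 24 hrs and 2.63 ± 0.17 at 48 hrs). Id1, a target of BMP signalling, was higher by 1.78 ± 0.14 and 1.65 ± 0.14, and the TGF-β and BMP list had 11 of 49 probe sets higher and 1 lower at 24 hrs, and 5 and 2 at 48 hrs. Against the 7-hr arrays Id1 was not called at 24 or 48 hrs.

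No adipocyte marker probe set was called lower. Of the 17 tested, 4 gave a higher call at 24 hrs and 6 did at 48 hrs. Related lists had lower calls as well. Adipogenic transcription factors had 8 of 40 probe sets higher and 9 lower at 24 hrs, and 11 and 9 at 48 hrs. Lipid droplet and PPARγ targets had 8 of 39 higher and 6 lower, and 9 and 5. Triglyceride assembly had 2 of 16 higher and 5 lower, and 2 and 3. Adipokines had 2 of 18 higher and 5 lower, and 3 and 3. All tested probe sets gave 7.34% and 6.06% at 24 hrs and 5.94% and 5.73% at 48 hrs. Cebpa, a master factor of the adipocyte, read 1576, 1383 and 1288 at 1 hr, 2362, 2014 and 2197 at 24 hrs, and 2597, 2352 and 2090 at 48 hrs (log2 0.63 ± 0.10, adjusted p = 0.00197, and 0.73 ± 0.10, adjusted p = 0.000797). Retn, the hormone resistin, was higher by 0.65 ± 0.12 and 0.84 ± 0.12. Pparg, the target of RSG, had signals of 575, 735 and 571 at 1 hr, 731, 801 and 715 at 24 hrs, and 951, 1036 and 891 at 48 hrs. It overlapped at 24 hrs (log2 0.26 ± 0.11, adjusted p = 0.141) and was higher at 48 hrs (log2 0.62 ± 0.11, adjusted p = 0.00327). The 48-hr call was lost against the 7-hr arrays (limma, adjusted p = 0.625). Lipe, hormone-sensitive lipase, was called higher at 48 hrs (log2 0.44 ± 0.10, adjusted p = 0.0165), and not without replicate 1 or 2 of the 1-hr or of the 48-hr arrays or with no trend. Fabp4 gave mixed readings, since its representative probe set differed by -0.15 ± 0.10 at 24 hrs (adjusted p = 0.358) while other probe sets of the gene were called higher. Pck1, which makes glycerol backbone for triglyceride, was higher by 0.82 ± 0.14 and 0.90 ± 0.14.

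Few probe sets separated the second day from the first. Between 48 and 24 hrs 3 probe sets were called higher (0.0195% of those tested) and 3 lower (0.0195%), 0.039% in all, whereas 607 and 943 passed an unadjusted p of 0.05. Ccl9, a chemokine, went from 459, 698 and 738 at 24 hrs to 182, 266 and 371 at 48 hrs (log2 -1.24 ± 0.16, adjusted p = 0.0203), which overlapped its 1-hr signals of 216, 197 and 305. Rbp4, the carrier of retinol, rose from 969, 719 and 861 to 1991, 1790 and 1531 (log2 1.06 ± 0.15, adjusted p = 0.0420). Tmem45b, a membrane protein, rose from 77.4, 120 and 79.3 to 257, 241 and 248 (log2 1.46 ± 0.19, adjusted p = 0.0203). The other 3 probe sets, named after their values were seen, were another one of Ccl9, Chchd10, a mitochondrial protein (log2 -1.38), and 1 of Sdhc, a subunit of succinate dehydrogenase (log2 1.07), whose representative probe set was lower at 24 hrs (log2 -0.54 ± 0.10). Without replicate 1, 2 or 3 of the 24-hr arrays 2, 1 and 0 probe sets were called, without any single 48-hr array 0, and without the block 1.

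The 3T3-L1 DMSO arrays of the same times asked whether these changes were shared by the other adipocyte line. The lines were differentiated by different protocols, so that line and protocol cannot be told apart. 3T3-L1 cells had RSG at a far lower dose than C3H/10T1/2 cells, and only early in differentiation, with insulin, dexamethasone and isobutylmethylxanthine. Insulin without RSG followed, then serum-containing medium with neither. Both lines then had the same washout, so 3T3-L1 cells had been without RSG and insulin for longer by harvest. The part of this history in the differences was not tested. In a joint fit of 17504 probe sets, the 24-hr change differed between lines for 520 (2.97%), with 272 more positive (1.55%) and 248 more negative (1.42%) in C3H/10T1/2 cells. The 48-hr change differed for 438 (2.5%), with 248 more positive (1.42%) and 190 more negative (1.09%). Leaving out single C3H/10T1/2 arrays at 1 or 24 hrs gave 331, 259, 273, 271, 307 and 220 at 24 hrs, in the order of time and replicate. Leaving out C3H/10T1/2 arrays of 1 or 48 hrs gave 290, 227, 257, 272, 251 and 256 at 48 hrs. Of the 3T3-L1 arrays, replicate 1 at 1 hr (337) and replicates 1 (294) and 2 (324) at 24 hrs did so for the 24-hr change and replicate 2 at 48 hrs (256) for the 48-hr change. The difference was tested on its own as the C3H/10T1/2 change minus the 3T3-L1 change.

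Hypoxia targets were lower in 3T3-L1 cells too. Of the 42 probe sets of the joint fit 12 gave a lower call in 3T3-L1 cells at 24 hrs and 25 did at 48 hrs, beside 0.657% and 1.49% of all jointly fitted probe sets. The change in C3H/10T1/2 cells was called more negative for 7 and more positive for none at 24 hrs, and more negative for 1 and more positive for 3 at 48 hrs. Slc2a1 was an example, with a difference of -1.29 at 24 hrs (adjusted p = 0.0187) and of -0.44 at 48 hrs (adjusted p = 0.506). Ero1a differed from 1 hr in both lines and its difference between lines was not called (adjusted p = 0.065 at 24 hrs).

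Energy genes were set side by side in the same way. Of the 227 jointly fitted probe sets for fatty acid oxidation, the TCA cycle and OXPHOS none was lower in 3T3-L1 cells at 24 hrs and 3 were at 48 hrs, and the change was called more negative in C3H/10T1/2 cells for 31 and 18. Cidea differed between lines by -2.30 at 24 hrs (adjusted p = 0.0022, and 0.0517 without the replicate block) and -3.15 at 48 hrs (adjusted p = 0.000189). Sterol synthesis had no probe set lower in 3T3-L1 cells, and the change was called more negative in C3H/10T1/2 cells for 11 of 36 at 24 hrs and 3 at 48 hrs, with Lss at -1.72 (adjusted p = 0.000842). In the matrix list 10 of 69 changes were called more positive in C3H/10T1/2 cells at 24 hrs and 5 at 48 hrs.

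Cyp2f2 was flat in 3T3-L1 cells (log2 0.01 at 24 hrs) and its change differed by 2.47 (SE 0.17, adjusted p = 1.82e-06). Thrsp rose in 3T3-L1 cells at 48 hrs (log2 0.87, adjusted p = 0.0228) and its change differed by -3.33 (adjusted p = 1.05e-05). Socs3 fell in 3T3-L1 cells by 1.98 and 2.70 on the log2 scale, opposite to its rise in C3H/10T1/2 cells. Pck1 by comparison was higher in both lines, and its difference was not called (adjusted p = 0.362 at 24 hrs).

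**Figure D5:**
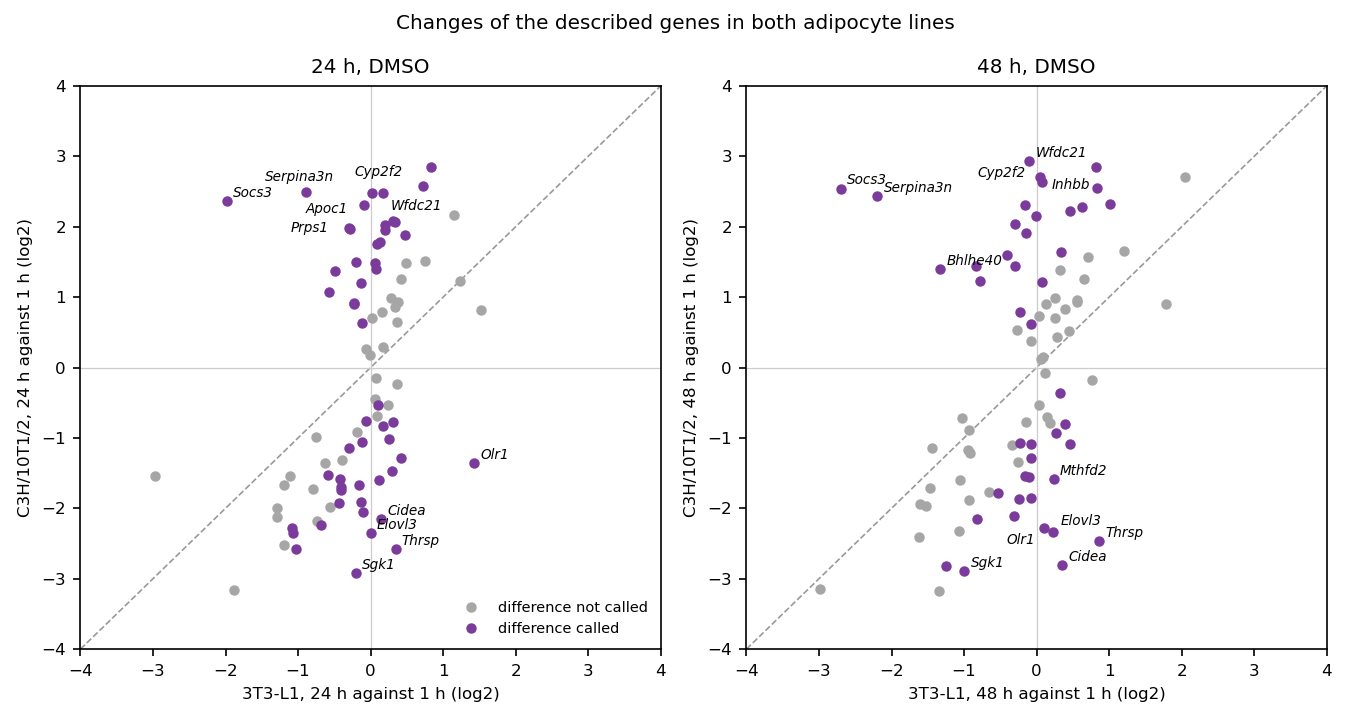
Log2 change against 1 hr in 3T3-L1 DMSO arrays (horizontal) and C3H/10T1/2 DMSO arrays (vertical) at 24 and 48 hrs for 86 genes described in the text whose mean signals reached the presence level, with the dashed diagonal marking equal change and purple points where the difference between lines was called. The genes were named for large changes in C3H/10T1/2 cells or large differences between the lines, and the difference was called for 52 of the 86 at 24 hrs and 44 at 48 hrs, beside 2.97% and 2.5% of all jointly fitted probe sets.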

How the data were processed

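RNA of the 9 C3H/10T1/2 DMSO cultures was hybridised to Affymetrix mouse 430A arrays. The authors computed MAS 5.0 signals and scaled each array to a common trimmed mean, and the deposited values are intensities on a linear scale. The 64 control probe sets were left out, 22 signals of 0 were set to 0.1, and log2 values were fitted in limma 3.58.1 (R 4.3.3; lmFit and eBayes with an intensity trend, group means, replicate number as block, two-sided, Benjamini-Hochberg). Tables and plots were made in Python 3.11.15 with pandas 2.3.3 and matplotlib 3.10.9. The scripts were tested on simulated data. The difference between lines was an interaction in 1 fit of 9 C3H/10T1/2 and 9 3T3-L1 arrays. The number of arrays, 3 at each time, limits the precision.

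Replicate numbers were checked as pairs over 13853 probe sets. Deviations from the group means correlated at 0.06 to 0.31 for same-numbered arrays, 8 of 9 pairs over 0.1, and at -0.21 to 0.07 for others. The numbers were taken to mark the 3 batches of cells, which the sample titles do not state, and the block was kept.

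The arrays, gene lists and genes were chosen with earlier results of these data known. Genes were named by the largest called changes without overlap, over all genes and within each list, and cell type markers always. Of the probe sets 20380 had 1 gene symbol, 691 several and 1555 none in the platform annotation, and a gene was represented by its probe set with the highest mean signal. Promoters were from RefSeq. The alternatives were no block, all 18 C3H/10T1/2 DMSO arrays, no trend, no filter, a floor at the presence level, quantile normalisation, the methods' test, the 7-hr arrays as baseline, and each array left out.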

Additional observations from a re-analysis of the deposited data

Results flagged for a closer look

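The change with time differed between C3H/10T1/2 and 3T3-L1 cells, by the test of the difference itself, for the genes below. Values are the log2 change in C3H/10T1/2 minus that in 3T3-L1. At 24 hrs it was more positive in C3H/10T1/2 cells for Socs3 (4.35), Serpina3n (3.38), Cyp2f2 (2.47), the lipid carrier Apoc1 (2.41), Wfdc21 (2.30) and the nucleotide synthesis enzyme Prps1 (2.28). It was more negative for Thrsp (-2.92), the scavenger receptor Olr1 (-2.79), Sgk1 (-2.71), Fosb (-2.38), Elovl3 (-2.35) and Cidea (-2.30).

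At 48 hrs the difference was positive for Socs3 (5.24), Serpina3n (4.64), Wfdc21 (3.04), the clock-linked repressor Bhlhe40 (2.73), Cyp2f2 (2.66) and Inhbb (2.56). It was negative for Thrsp (-3.33), Cidea (-3.15), Elovl3 (-2.56), Olr1 (-2.37), Sgk1 (-1.89) and the folate enzyme Mthfd2 (-1.82). Socs3 went from a mean signal of 55.9 at 1 hr to 261 at 24 hrs in C3H/10T1/2 cells and from 333 to 85.7 in 3T3-L1 cells, and Cyp2f2 from 543 to 2932 in C3H/10T1/2 cells against 505 and 509 in 3T3-L1 cells. The Cidea difference at 24 hrs was not called without the replicate block (adjusted p = 0.0517). The Olr1 differences were not called under several settings, with adjusted p of up to 0.0734 at 24 hrs and 0.132 at 48 hrs. Groups of 3 arrays were not tested for single outlying arrays.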

How the results depend on the processing

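The counts of calls moved with the test, the trend, the block, the baseline and the arrays used. At 24 hrs the 2065 called probe sets became 1313 with no trend, 1282 against the 7-hr arrays, 621 with the methods' test after Benjamini-Hochberg adjustment, 1461 without the replicate block and 1201 to 2329 with 1 array left out. At 48 hrs the 1797 became 1088 with no trend, 2773 with the methods' test as stated (unadjusted, with a fold limit), 485 after its adjustment, 1228 without the block and 1046 to 1704 with 1 array left out. Between 48 and 24 hrs the 6 became 1 without the block, 71 with all 18 arrays, 0 with no trend, 0 with no filter, 848 with the methods' test, 0 after its adjustment and 0 to 8 with 1 array left out. The differences from 3T3-L1 became 292 and 228 without the block, 212 and 182 with no trend, and 220 to 768 and 227 to 443 with 1 array left out.

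Lower hypoxia probe sets at 24 and 48 hrs numbered 12 and 5 with the adjusted methods' test, 14 at 48 hrs against 7 hrs, and 26 to 29 and 22 to 26 with 1 array left out. Lower immediate early probe sets numbered 14 and 15, 3 and 6, and 22 to 26 and 24 to 28 under the same settings. Lower cholesterol synthesis probe sets numbered 8 and 0 with the adjusted methods' test, 3 and 2 against 7 hrs, 15 to 21 and 6 to 12 with 1 array left out, and at 48 hrs 5 without the block and 5 with no trend. Lower energy probe sets numbered 40 and 27 with no trend, 34 and 24 with the adjusted methods' test, 23 and 20 against 7 hrs, and 46 to 98 and 32 to 70 with 1 array left out. Higher matrix probe sets numbered 7 and 2, 9 and 6, and 15 to 23 and 8 to 16 under the last 3 of these settings, and at 48 hrs 10 without the block, 7 with no trend and 11 with no filter.

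Of 173 late changes of described genes, 88 kept direction and call against the 7-hr arrays, 73 kept direction only and 12 reversed. The reversed log2 values were -0.14 for Adm at 24 hrs, -0.81 and -0.49 for Bhlhe40, -0.81 and -0.86 for Ier3, -0.36 and -0.19 for Socs3 at 24 and 48 hrs, and at 48 hrs -0.32 for Ccl2, 0.10 for Cyp51, 0.54 for Lss, 0.10 for P4ha2 and 0.016 for Pmvk. No other setting reversed a described gene. The cause was not tested.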

Other observations

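Late rises that were larger at 48 than at 24 hrs on every array were seen in Sult1a1, a sulfotransferase, and Pmepa1, which dampens TGF-β signalling. Sult1a1 had signals of 51.1, 56.8 and 45.7 at 1 hr, 102, 158 and 108 at 24 hrs, and 211, 689 and 251 at 48 hrs. Replicate 2 was the highest at each time. Pmepa1 read 62.0, 61.3 and 84.3, then 187, 114 and 182, then 334, 275 and 246. Neither passed the test between 48 and 24 hrs.

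Lists not described so far were mixed. Glucocorticoid targets had 11 of 28 probe sets lower and 3 higher at 24 hrs, and 12 and 2 at 48 hrs. The IGF axis had 5 of 23 higher and 1 lower at 24 hrs, and 8 and none at 48 hrs. Cytosolic ribosomal proteins had 2 of 84 probe sets higher and none lower at 24 hrs, and 1 higher and 3 lower at 48 hrs. Lipolysis genes had 4 of 20 probe sets higher at 24 hrs and 7 at 48 hrs, with none lower. Cited2, a brake on HIF activity, was lower by -1.92 ± 0.16 at 24 hrs and -1.54 ± 0.16 at 48 hrs on the log2 scale.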
